A study of Linum usitatissimum with 11 samples.

Results

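A set of 196 flax transcripts had a value on every lbf1 array and on no wild-type (wt) array of the authors' deposited table, at a mean log2 level of at least 8 in lbf1. They are 0.452% of the 43408 flax gene model identifiers (names starting with Lus) on the array. The members were chosen by measured values: a value on all 7 lbf1 arrays, none on all 4 wt arrays, and the mean over 6 lbf1 plants after the 2 arrays of lbf1 plant 1 were averaged. The contrast between lbf1 and wt is therefore what selected them, and it is given below as a description only. Of the 637 identifiers with a value on all lbf1 arrays and no wt array, 196 reached the level of 8, which lies below the table's median of 9.02 on each array. They make up 1.13% of the 17390 identifiers that had a value on all lbf1 arrays at that level.

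The tested plants were 6 individuals of the EMS (chemically mutagenised) family lbf1, set against 3 wt individuals. All were of cultivar Diane, field-grown in Lille and harvested in the vegetative stage, and RNA came from the inner stem left after peeling. Plant 1 of lbf1 and plant 3 of wt were each hybridised to 2 arrays, which gave 11 single-colour arrays on 4 slides. The titles of lbf1 plants 5 and 6 read lbf, while their genotype label is the same as that of the other lbf1 plants. The labels name no allele, give no plant age and do not say whether the plants of the family are genetically alike.

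Flax stems carry bast fibres in the outer tissues, whose thick walls are rich in cellulose and normally hold little lignin, and peeling takes these outer tissues off. The inner part is mainly xylem, the water-conducting wood, whose walls are lignified, with pith at the centre. The mutant is named for lignified bast fibres, and the study asked which transcripts of the inner stem differ in it. The files pair no identifier with a gene name, function or sequence, so the transcripts are described by identifier and measured values, no role is given to any of them, and the labelled tissue could not be checked against marker genes. The stem samples are bulk tissue, in which a change in the cells present and a change in RNA per cell cannot be told apart.

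Arrays of lbf1 were brighter than those of wt as a whole. The upper quartile of net signal (spot mean minus local background, in scanner brightness units) was 650 to 920 units on lbf1 arrays and 317 to 732.5 units on wt arrays, with both of those wt extremes on repeat arrays of wt plant 3. Between 62.2% and 64.7% of probes were above background on lbf1 arrays, against 54.7% to 61.2% on wt arrays. Above background means a net signal over 2.6 SDs of the local background on a spot not marked as bad.

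The 196 transcripts had a far higher net signal on lbf1 arrays than on wt arrays, which the rule required. Between 191 and 193 of them were above background on each lbf1 array, against 16 to 40 on each wt array. Their median net signal was 1077.5 and 1181 units on the 2 arrays of lbf1 plant 1, and 415, 929, 523.5, 971.5 and 379.5 units on lbf1 plants 2 to 6. It was 9 units on wt plant 1, 10.5 units on wt plant 2, and 11.5 and 14 units on the 2 arrays of wt plant 3. The lowest member on any lbf1 array had 58 units, in plant 6, and all 196 exceeded the 95th percentile of the array's negative-control spots on each of the 7 lbf1 arrays.

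The members' levels were also put on a common scale for each plant. After background correction and quantile normalization, the members' median level was 9.90, 8.90, 9.59, 8.99, 9.56 and 8.61 (log2) in lbf1 plants 1 to 6, against 6.06, 6.06 and 6.14 in wt plants 1 to 3. The 6 lbf1 medians did not overlap the 3 wt medians, a separation built into the rule. Other identifiers with a value on all lbf1 arrays at the same mean had medians of 9.92 to 9.95 in each lbf1 plant. Quantile normalization gives all arrays the same distribution, which holds the medians of so large a set alike.

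**Figure D1:**
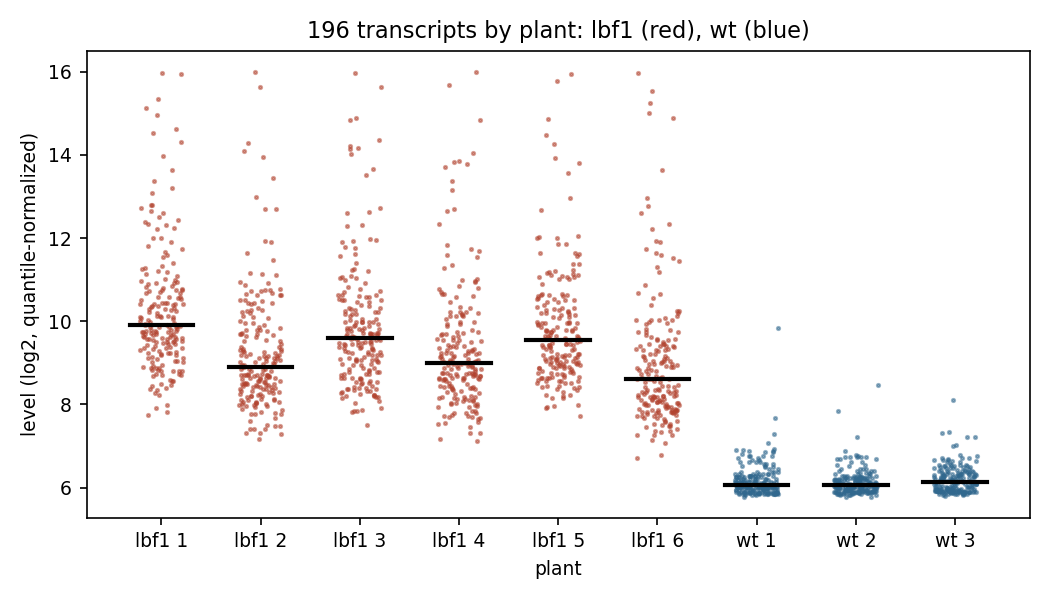
Level (log2, quantile-normalized) of each of the 196 transcripts in each of the 6 lbf1 plants (red) and 3 wt plants (blue), with black bars at the median of the 196. The lbf1 medians lie between 8.61 and 9.90 and the wt medians between 6.06 and 6.14, and single high points among wt plants include Lus10003264 at 9.83 in wt plant 1.

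Signal levels of the members spanned a wide range, which on an array reflects each probe as well as its transcript. By the mean over lbf1 plants in the deposited table, 88 transcripts lay from 8 to 9, 58 from 9 to 10, 23 from 10 to 11, 15 from 11 to 12, 6 from 12 to 14 and 6 above 14. The median was 9.13 and the highest mean was 15.8. The mirror-image set, with a value on all wt arrays and no lbf1 array at a wt mean of at least 8, held 11 identifiers, and its highest mean was 8.97 with a median of 8.48. At any level it held 63, against 637 in the lbf1 direction. These counts are not like for like, because the rules differ in the arrays they use. The mirror-image set needed a value on 4 arrays and none on 7, and the members needed the reverse. The brighter lbf1 arrays also moved with this asymmetry. The parts of array number and brightness in it were not tested.

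The brightest member was Lus10020491. Its net signal was 62526 and 64894 units on the arrays of lbf1 plant 1 and 64416, 64698, 65008, 63858 and 64056 units in lbf1 plants 2 to 6, against 19 and 23 units in wt plants 1 and 2 and 89 and 50 units on the arrays of wt plant 3. At least 50% of its pixels were saturated on all 7 lbf1 arrays, so its level there is only a lower limit, and it was above background on all 4 wt arrays. Its normalized level was 15.97 ± 0.0159 in lbf1 (SD, n = 6) and 6.74 ± 0.483 in wt (SD, n = 3), which puts it at least 599.9-fold higher in lbf1. Every lbf1 value lay far above every wt value.

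Lus10003265 came next. It had 63270 and 63936 units in lbf1 plant 1 and 47715, 54694, 53402, 58980 and 48125 units in lbf1 plants 2 to 6, against 31, 14, 20 and 29 units on the 4 wt arrays. It was saturated on 3 of 7 lbf1 arrays, and no member other than these 2 was saturated on any. Its level averaged 15.70 ± 0.145 in lbf1 plants and 6.54 ± 0.384 in wt plants (SD, n = 6 and n = 3). It was above background on 1 of the 4 wt arrays, so both averages rest in part on limits.

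Lus10003264, whose number precedes that of Lus10003265 came after it. It had 30571 and 38803 units on the arrays of lbf1 plant 1 and 16532, 33109, 30403, 33005 and 30528 units in lbf1 plants 2 to 6. On wt arrays it had 554 units in plant 1, 7 units in plant 2, and 12 and 11 units in plant 3. The value of 554 was the highest net signal of any member on a wt array, but the median pixel of that spot was only 5 units above its background. Its levels were 15.13, 14.09, 14.90, 14.85, 14.87 and 14.90 in lbf1 plants 1 to 6, against 9.83, 5.95 and 6.09 in wt plants. It was above background on 1 of the 4 wt arrays. The log2 difference was 7.50 with a standard error of 0.730, and the wt values behind that error include the single bright spot.

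Lus10019801 followed, with 19340 and 21699 units in lbf1 plant 1, then 18847, 19023, 15633, 16394 and 33372 units in lbf1 plants 2 to 6, against 29, 20, 14 and 30 units on the wt arrays. Plant 6 was its highest lbf1 plant, at a level of 15.01, while the other 5 lbf1 plants lay between 13.80 and 14.30. In wt plants its levels were 6.88, 6.32 and 6.36, and it was above background on 2 of the 4 wt arrays. The log2 difference was 7.69 with a standard error of 0.258.

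At the other end, the threshold cut through a continuous range. The members just inside it were Lus10025253 and Lus10041719, both with a table mean of 8.01, and the identifiers just outside were Lus10014721 at 7.9996 and Lus10007823 at 7.99. Lus10025253 had levels of 10.09, 7.17, 9.71, 8.62, 8.16 and 6.77 in lbf1 plants 1 to 6 and 5.81, 5.78 and 5.91 in wt plants. Its lowest lbf1 plant thus lay less than 1 log2 unit above the highest wt plant. Lus10014721, outside by the smallest margin, had levels of 7.45, 8.92, 6.95, 7.25, 8.79 and 10.48 in lbf1 plants and 8.17, 6.62 and 6.90 in wt plants, so that its groups overlapped. Lus10007823 had 8.72, 7.60, 8.998, 8.50, 8.19 and 7.30 in lbf1 plants and 6.38, 6.48 and 6.02 in wt plants, with no overlap, as in members just inside.

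All 196 passed the filter on dim probes and were called higher in lbf1 by limma at a Benjamini-Hochberg adjusted p under 0.05 over 28267 tested probes. Over all tested probes, 16.7% were called higher in lbf1, 15.5% were called lower, and 5.3% were called at least 2-fold higher. Since the rule used this contrast, nothing is read from the members' calls. The members' log2 difference (lbf1 minus wt) had a median of 3.07, with quartiles of 2.57 and 3.84 and a range of 1.67 to 9.23, while the median over all tested probes was 0.02. It was at least 2 in 189 members, at least 3 in 104, at least 4 in 46 and at least 6 in 11. These are fitted values, and for the 128 members above background on no wt array they are not measured sizes. For most other members the wt side also rests in part on signal not above background. Of them, 42 were above background on 1 wt array, 18 on 2, 6 on 3 and 2 on all 4. The median standard error was 0.379 for members and 0.157 for all tested probes.

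For the 128 members that were above background on no wt array, the wt side is a bound. Against the higher of the wt spot's own value and the lowest signal above background on its array, they were at least 8.18-fold higher in lbf1 at the median, with bounds from at least 3.38-fold to at least 254-fold. The bound reached 4-fold in 127 of them and 16-fold in 29. The greatest bound belonged to Lus10003231, which is named after its values were seen. It had 22103 and 24952 units in lbf1 plant 1 and 14870, 15099, 15780, 21986 and 38488 units in lbf1 plants 2 to 6, against 11, 11, 21 and 15 units on the wt arrays.

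Slides and array brightness were unevenly spread over the genotypes. Slide 1 carried lbf1 plant 1 with wt plants 1 and 2, slide 2 carried wt plant 3, and slides 3 and 4 carried lbf1 plants only. Within slide 1, lbf1 is 1 plant on 2 arrays against 2 wt plants, so the fit there holds no spread between lbf1 plants. All 196 differences within slide 1 were above 0, the direction the rule selected, with a median of 3.88 and a minimum of 0.92. A fit with slide as a fixed block gave the same median of 3.88, because slide 1 alone holds both genotypes. Both values rest on lbf1 plant 1, the highest lbf1 plant for 108 of the 196 (median deviation 0.63), and are no estimate for the other lbf1 plants. With the plant's brightness as a term beside genotype, 25 members were called higher, beside 0.251% of all tested probes. Their median difference was then 2.33 with a median standard error of 0.86, and 192 of the 196 stayed above 0. Brightness was 9.34 to 9.85 in lbf1 plants and 8.72 to 9.07 in wt plants (log2 of the upper quartile). The ranges of these plant averages do not overlap, so brightness and genotype can hardly be told apart in this fit. Single arrays do overlap, with the second array of wt plant 3 at 9.52 and lbf1 plant 2 at 9.34. The members' median net signal was 14 units on that wt array and 415 units in lbf1 plant 2, a gap the rule selected for.

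The scanner's flags on wt spots were fixed by the rule, while the signal of those spots was not. GenePix marked 195 of the members' spots as not found and 1 as bad on wt plant 1, and all 196 as not found on each of the other 3 wt arrays. By the net signal of the spot mean, 128 members were above background on no wt array, 42 on 1, 18 on 2, 6 on 3 and 2 on all 4. By the spot median in place of the mean, 160 were above background on no wt array, 20 on 1, 12 on 2 and 4 on 3. Per array, 24 members were above background on wt plant 1, 24 on wt plant 2, and 16 and 40 on the 2 arrays of wt plant 3.

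Negative-control spots gave a second yardstick for the wt signal. Their median net signal was 3 to 6 units on the 11 arrays. By spot mean, 5, 4, 16 and 34 members exceeded the 95th percentile of these spots on the arrays of wt plant 1, wt plant 2 and wt plant 3 (both arrays), where that percentile was 36.8, 39.4, 23.8 and 27.8 units. By spot median the percentile was 6 to 8.4 units, and 105, 121, 106 and 125 of the 196 members exceeded it. By spot median, many members thus had a weak wt signal above most negative-control spots. Their array medians by that measure were 7 to 11 units in wt, against 383.5 to 1220 units in lbf1. By spot mean, the members' wt medians of 9 to 14 units lay below the percentile on every wt array. The same counts over all probes are not given, and how far the weak wt signal is the transcript itself was not tested.

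Bright wt spots were few and were not repeated. Only 8 of the members' wt spots, in 8 different transcripts, exceeded 100 units by spot mean, at 115 to 554 units, and their spot medians were 5 to 44 units. No member exceeded 100 units by spot median on any wt array. Lus10012684, named after its values were seen, had 544 units on the first array of wt plant 3 and no more than 11 units on its repeat array and on the other wt arrays. Lus10003389 had 319 units on the second array of wt plant 3, and between 7 and 9 units on the others.

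**Figure D2:**
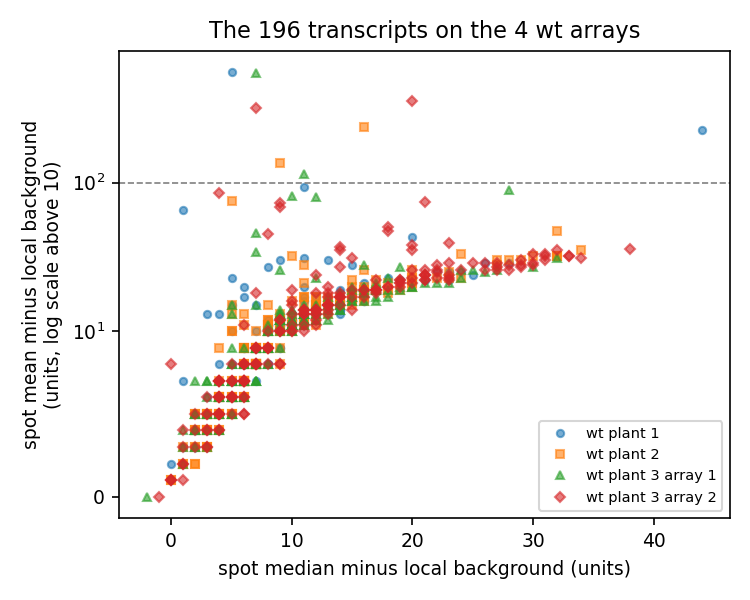
Net signal of each of the 196 transcripts on the 4 wt arrays, by spot median (horizontal, units) and spot mean (vertical, units, logarithmic above 10), with a dashed line at 100 units. Most spots lie along a common line below 40 units on both axes, and the 8 spots above the dashed line have medians of 5 to 44 units.

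The members differed between lbf1 plants far more than the other identifiers detected on all lbf1 arrays at that level. Of those 17194 others, 16887 also had a value on all 4 wt arrays, and those with fewer came closer to the members. The SD over the 6 lbf1 plants had a median of 0.697 log2 units over the 196 (quartiles 0.494 and 0.927), against 0.220 for the 17194 other identifiers with a value on all lbf1 arrays at the same mean and 0.222 for all tested probes. An SD of at least 1 was found in 35 members, or 17.9%, and in 1.02% of those others. Identifiers that were not members but were called and at least 4-fold higher in lbf1, of which there were 278, had a median SD of 0.537. The 2 arrays of lbf1 plant 1 differed by a median of 0.0627 log2 units over members and 0.0616 over the others. Repeat hybridisation thus moved both by about the same amount in that plant. Both arrays were on slide 1, and the members' median level was highest in that plant. The comparison therefore gives no measure of technical spread between slides or at lower levels. Within slide 3 alone, which held 4 lbf1 plants, the median SD was 0.545 for members and 0.185 for the others. These figures are descriptions without a test, since members were chosen by level.

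The spread changed step by step with the number of wt arrays that had a value. Among identifiers with a value on all lbf1 arrays and a mean of at least 8, the median SD over lbf1 plants was 0.697 for the 196 with a value on no wt array, 0.622 for 60 with 1, 0.519 for 91 with 2, 0.404 for 156 with 3 and 0.218 for 16887 with all 4. Their median mean levels were 9.13, 8.93, 8.70, 8.65 and 9.95, so the first 4 classes were of similar brightness. Within the set, the SD did not fall steadily with level. The median SD was 0.675 for means from 8 to 9, 0.730 from 9 to 10, 0.583 from 10 to 11, 0.904 from 11 to 12, 0.798 from 12 to 14 and 0.402 above 14, a class that includes both saturated transcripts.

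**Figure D3:**
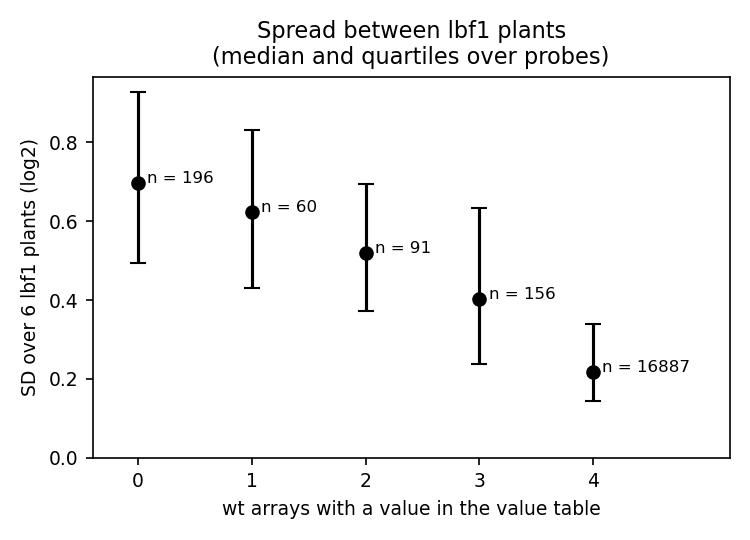
Median (points) and quartiles (bars) of the SD of the log2 level over the 6 lbf1 plants, for identifiers with a value on all lbf1 arrays and a mean of at least 8, by how many of the 4 wt arrays had a value. The median is 0.697 where no wt array had a value (the 196 members) and 0.218 where all 4 had one.

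Members with the most and the least spread show what these SDs mean. Lus10007035 varied most, with levels of 12.80, 8.38, 10.24, 8.93, 10.62 and 7.73 in lbf1 plants 1 to 6 (SD 1.84) and of 5.84, 5.81 and 5.90 in wt plants. Its net signal was 7199 and 8515 units on the arrays of lbf1 plant 1 and 173 units in lbf1 plant 6, against 1 to 9 units on the wt arrays. Lus10020491 varied least, but its spots were saturated. Lus10018616, named after its values were seen, had the smallest SD among unsaturated members, 0.218, with levels of 8.90, 8.42, 8.55, 8.41, 8.89 and 8.60 in lbf1 plants and 6.06, 6.21 and 6.10 in wt plants.

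Much of this variation was shared between members. Plant 1 held the highest lbf1 level of 108 members and plant 6 the lowest of 104, where the same plants held the highest and the lowest of 19.5% and 17.4% of the other identifiers. The median deviation of the members from their own lbf1 means was 0.63, -0.27, 0.26, -0.23, 0.20 and -0.72 in lbf1 plants 1 to 6. Plants 1, 3 and 5 were the 3 highest for 80 members (40.8%) and for 4.73% of the others. These plants and plant 6 were singled out by the members' own levels, which favours members over the others in all these counts. The brightness of lbf1 plants 1 to 6 was 9.67, 9.34, 9.75, 9.58, 9.85 and 9.54, with plants 1, 3 and 5 again the 3 highest. Plant 1 was also the only lbf1 plant on slide 1 and plant 6 the only one on slide 4, so for these plants slide and plant cannot be told apart. The part of brightness in the shared profile was not tested.

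The likeness of profiles was also measured per transcript, as the Pearson correlation over the 6 lbf1 plants with the median of the remaining members. The correlation was at least 0.8 for 92 members (46.9%), against 5.53% of the other identifiers and 27.3% of the 278 others at least 4-fold higher in lbf1. The median over members was 0.79. The reference profile came from the members themselves for all these shares, which favours members over the others. The other identifiers also varied less between lbf1 plants (median SD 0.220 against 0.697). All points share the same 7 arrays and the correlations rest on 6 plants, so they are given without a test. The range of the plant medians was 1.29 log2 units for members and 0.576 for those 278 others.

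A minority ran the other way. The correlation was below 0 for 22 members and at most -0.4 for 9, of which those given here were named after their values were seen. One of the 9 is Lus10020491, whose spots were saturated on all 7 lbf1 arrays, so that its profile over plants is not interpretable. The highest lbf1 plant was plant 6 for 7 of the 9. Lus10011499 had levels of 8.45, 10.63, 7.83, 8.34, 11.06 and 12.23 in lbf1 plants 1 to 6 (SD 1.79), against 6.67, 6.68 and 6.43 in wt plants. Lus10023140 had 7.75, 9.80, 7.51, 7.85, 10.30 and 11.74 in lbf1 plants (SD 1.72), against 6.90, 6.75 and 6.08 in wt plants. Lus10009365 had 9.74, 10.43, 7.82, 8.68, 10.32 and 11.44 in lbf1 plants (SD 1.31), against 6.44, 6.40 and 6.77 in wt plants. In all 3 of these, lbf1 plant 6 was the highest and lbf1 plants 2 and 5 came after it. In each, lbf1 plant 3 was the lowest, and no lbf1 value overlapped a wt value. Lus10011499 was above background on 3 of the 4 wt arrays, Lus10009365 on 2 and Lus10023140 on none. Of the 9, these 3 had the greatest SDs. The lowest correlations were those of Lus10025502 (-0.74), highest in lbf1 plant 6, and Lus10013538 (-0.73), highest in lbf1 plant 2.

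**Figure D4:**
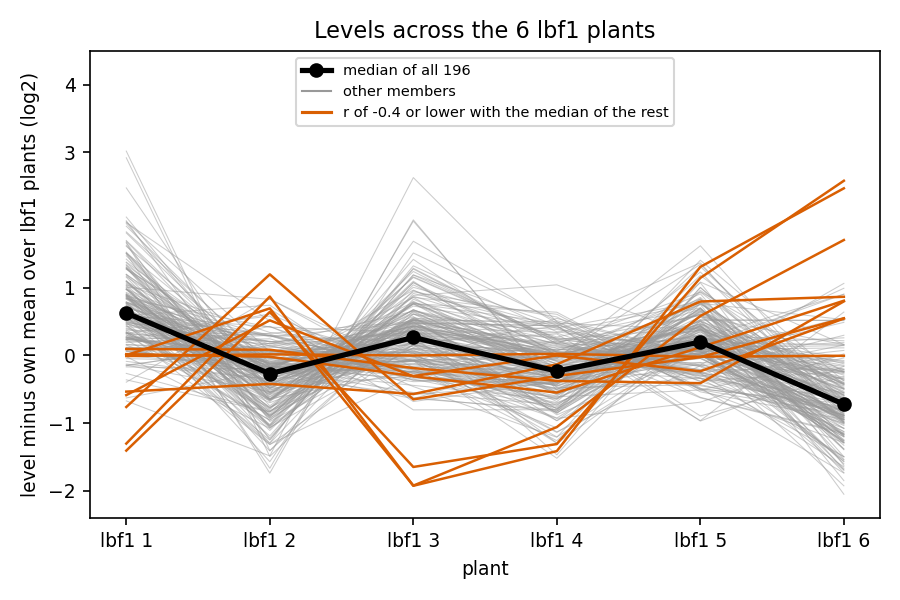
Level of each of the 196 transcripts minus its own mean over the 6 lbf1 plants (log2), with the median of all 196 in black and the 9 members whose correlation with the rest was at most -0.4 in orange. The black line is highest in plant 1 (0.63) and lowest in plant 6 (-0.72), and 7 of the 9 orange lines reach their highest point in plant 6.

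Some members carried consecutive identifier numbers. The numbers just before and just after each member made 392 positions, so that an identifier next to 2 members is counted for each. Of these positions, 24 held a member (6.12%), where members are 0.452% of all identifiers. There were 9 runs of consecutive numbers with 21 members in all, the longest of 4. Genome positions are not given in the files, so a run is one of numbers only, and gene models of like sequence that share signal on a probe cannot be told apart here.

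The run of 4 was Lus10003264 to Lus10003267. Its first 3 were each above background on 1 of the 4 wt arrays and the last on none, and Lus10003264 and Lus10003265 were described above. Lus10003266 had levels of 12.73, 11.91, 12.72, 12.66, 12.67 and 12.77 in lbf1 plants 1 to 6, against 6.02, 5.98 and 6.54 in wt plants. Lus10003267 had 8.35, 8.32, 8.29, 8.09, 9.04 and 9.04 in lbf1 plants, against 5.93, 5.92 and 5.92 in wt plants. Their SDs over lbf1 plants, 0.328 and 0.412, lay below the set's median of 0.697.

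A run of 3 was Lus10020491 to Lus10020493. The first is the saturated transcript described above. Lus10020492 had levels of 11.74, 9.92, 12.29, 11.55, 11.10 and 10.03 in lbf1 plants and 5.89, 5.86 and 5.97 in wt plants. Lus10020493 had 15.35, 12.99, 14.17, 13.71, 14.47 and 13.64 in lbf1 plants and 6.38, 6.21 and 5.86 in wt plants. It was above background on no wt array and at least 221-fold higher in lbf1. The last 2 of this run followed each other over lbf1 plants with a correlation of 0.65 (n = 6).

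The other 7 runs were pairs. The closest was Lus10001041 with Lus10001042, at a correlation of 0.98 over the 6 lbf1 plants. Lus10001041 had levels of 12.23, 11.16, 12.60, 12.35, 11.23 and 10.87 in lbf1 plants 1 to 6, and Lus10001042 had 13.97, 12.69, 14.36, 13.77, 12.96 and 12.35. Both were highest in plant 3 and lowest in plant 6. Over the 12 adjacent pairs in all runs the correlation had a median of 0.69 and ranged from -0.33 to 0.98, against a median of 0.53 over all 19110 pairs of members. Both sets include pairs with a saturated transcript. Among adjacent pairs these are Lus10020491 with Lus10020492 (-0.12), and Lus10003265 with Lus10003264 (0.47) and with Lus10003266 (0.24).

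The identifiers next to members that were not members themselves were looked at in the same contrast. Of 364 such identifiers 232 were tested: 53 were called higher (22.8%, beside 16.7% of all tested probes), 30 lower (12.9%, beside 15.5%) and 25 at least 2-fold higher (10.8%, beside 5.3%). These shares are descriptions and were not tested.

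One stretch of the numbering stood out by its count. In bins of 500 numbers, 10003000 to 10003499 held 13 members, the next fullest of the 87 bins held 7, the median bin held 2 and the mean was 2.26. The bin was noticed after the counts were seen. Its 13 members had table means from 8.36 to 15.6, and 9 of the 13 were above background on no wt array. Of the other identifiers in the bin 279 were tested: 40 were called higher (14.3%, beside 16.7% of all tested probes), 12 were at least 2-fold higher (4.30%, beside 5.3%), and the median log2 difference was -0.00. Besides the run of 4, the bin held Lus10003231, and Lus10003187 had levels of 11.60, 10.08, 10.60, 9.40, 10.63 and 9.04 in lbf1 plants, against 5.98, 5.98 and 6.01 in wt plants.

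**Figure D5:**
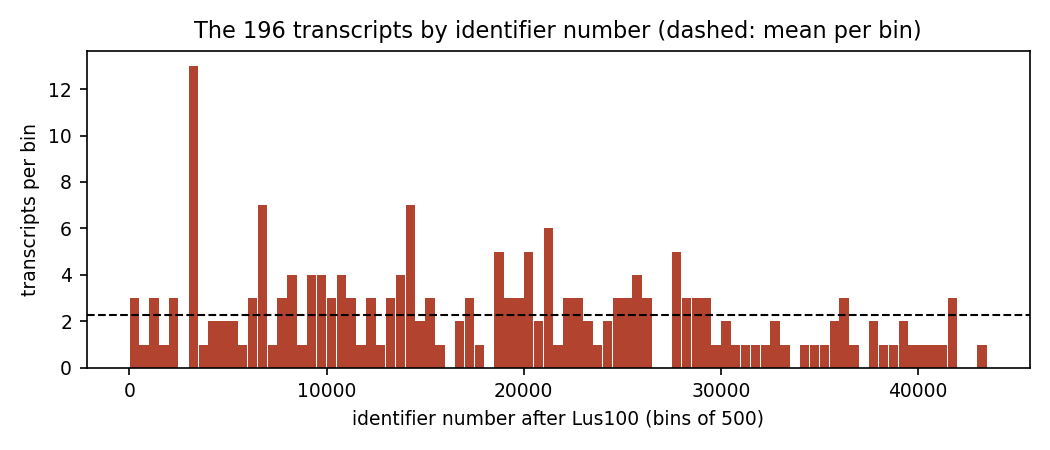
Number of the 196 transcripts per bin of 500 identifier numbers (horizontal axis, the number after Lus100), with the mean of 2.26 per bin dashed. The bin from 10003000 to 10003499 holds 13, and no other bin holds more than 7.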

How the data were processed

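RNA of 6 lbf1 and 3 wt inner stems was measured on 11 Agilent arrays. Per the file headers, the deposited scanner tables come from GenePix Pro 6.0.1.22 at a photomultiplier gain of 450 and hold spot intensity in linear units with no normalization. They also hold, per the file headers, the percent of saturated pixels per spot and a flag score (GenePix codes for bad and not found). The authors' deposited value table is on the log2 scale. On each array at least 99.9888% of its values match log2 of the scanner's background-subtracted spot median plus an array constant (tolerance 0.001), and every column has a median of 9.02. No flagged spot has a value, and 7 further values over all arrays are missing at spots without a flag. Why it was centred is not stated in the labels.

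The value table was used for the selection rule and the means it rests on. All other levels came from the scanner tables: normexp (offset 50) on spot mean and local background median, control spots then removed, quantile normalization, log2, and averaging of the arrays of a plant. The offset understates changes of dim probes. Probes above background on all arrays of at least 3 plants were tested with limma 3.58.1 in R 4.3.3, with Benjamini-Hochberg adjustment at 0.05. No sample was dropped or imputed. The limma step was tested on simulated data in which each probe had the same SD in both genotypes. That simulation therefore does not cover probes, such as many members, whose spread differs between the genotypes. Precision rests on the small number of arrays, which carry no counts. Each numbered plant is an individual per the labels.

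The members and lists were chosen with earlier results of these data known. The rule for names took the 4 highest members, the 2 just inside and the 2 just outside the cutoff, the members with the greatest and the smallest SD over lbf1 plants, and the one with the highest wt signal. Other names are said to have been chosen after values were seen, or belong to the runs of identifiers, which were also described after they were seen. Lists of pathways and tissue markers could not be matched, since no identifier is annotated in the sources used here.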

Additional observations from a re-analysis of the deposited data

Results flagged for a closer look

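In lbf1 plants, 11 measures (array brightness, the members' median level, and the levels of 7 named members and the 2 identifiers just outside the cutoff) were examined for 1 plant far from the other 5, which chance alone marks in about 1 in 20 groups. Lus10003264 had a level of 14.09 in lbf1 plant 2, and the nearest other lbf1 plant was at 14.85. Lus10041719 had a level of 9.65 in lbf1 plant 5, and the nearest other was at 8.27.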

How the results depend on the processing

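The set itself depends on its rule. A cutoff of 7 gave 353 members and a cutoff of 9 gave 108. Detection by net signal in the scanner tables gave 117, of which 114 were members (97.4% of the 117, 58.2% of the 196). Slide 1 alone, chosen after seeing the data, gave 412. Leaving out 1 plant gave 180 to 284, the highest without wt plant 3, and using the first array of each plant gave 241. The number of members called was 189 to 196 with 1 plant left out (23.1% to 32.7% of all tested probes were called in either direction), 180 with slide as a fixed block (16.97%), and 25 with brightness as a term (0.354%), an alternative chosen after seeing the data. The members' median difference was 2.95 to 3.19 with 1 plant left out, 3.95 with the spot median and an offset of 16, 3.88 with slide as a fixed block and within slide 1, and 2.33 with brightness as a term. The median bound over members above background on no wt array used (128 with all arrays) was 2.86 to 3.12 on the log2 scale with 1 plant left out. It was 4.20 with the spot median and an offset of 16. The median SD over lbf1 plants was 0.611 to 0.736 with 1 plant left out and 0.810 in the authors' value table. The members above background on a wt array numbered 68, with 97 at 2 SDs of the background, 24 at 4 SDs and 36 by spot median. Scaling to the 75th percentile moved the median of all tested probes to -0.10, against 0.02, and the members' median to 2.71, with 36.8% of called probes higher in lbf1, against 51.9%. The causes of these shifts were not tested unless stated. Same-numbered lbf1 and wt plants correlated at 0.06, -0.09 and 0.08 in their deviations, within the range of differently numbered plants (-0.17 to 0.16). These values show no sign of pairing by number, but so few plants cannot decide whether same-numbered plants were handled together. With the replicate block 192 members were called, the median was 3.25, and 4386 of all probes were called against 9114. Only lbf1 plants 1 to 3 share a number with a wt plant, so the differences in that fit rest on those plants. Signal over background limits every statement on wt levels of the members.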

Other observations

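The members were spread over the array surface. In 4 equal bands of the array's rows they numbered 40, 50, 58 and 48, and in 4 bands of its columns 40, 52, 59 and 45, where each band held between 10797 and 10921 probes.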
